A study of Mus musculus with 12 samples.

Results

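The 38 genes described here drive the cell cycle and DNA replication, and their RNA was measured in brains of Nsd2 knockout (KO) and wild-type (WT) mouse embryos. They were taken as the rows of both deposited count tables whose symbol is on a list of 38 names, and all 38 names matched, out of 46078 genes. The groups were KO males, WT males, KO females and WT females at E15.5 (days of embryonic development), with 3 libraries each and 12 in all, on a C57BL/6 background, and the labels name no treatment. In the KO, CRISPR/Cas9 editing removed the whole coding sequence of Nsd2, which encodes a histone H3 lysine 36 methyltransferase, from every tissue, and the pups die soon after birth. RNA came from bulk brain after depletion of ribosomal RNA, so fewer cycling cells and less RNA per cycling cell cannot be told apart. How many founder lines the KO animals came from is not given in the sources used here.

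A dividing cell passes from G1 into S phase when D- and E-type cyclins, with their kinases, release E2F transcription factors from the retinoblastoma protein. Replication origins are licensed in G1, when CDC6 and CDT1 load the MCM2-7 helicase onto DNA, and copied in S phase around the sliding clamp PCNA. Cyclins A and B with CDK1 then carry the cell into mitosis, where the spindle checkpoint holds back the anaphase-promoting complex until every chromosome is attached. In the embryonic brain these genes are used mainly by radial glia and intermediate progenitors, and neurons switch them off.

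Promoters of these genes are known for shared short elements, and the 200 bases before the transcription start of 4 members are printed to show them: Mcm5 and Mcm6 for the S phase genes, Ccnb2 and Top2a for the mitotic genes. Sequences are from RefSeq on GRCm38.p6, 5′ to 3′ on the strand of the gene, and capitals mark 3 motifs found on either strand: the CHR element (TTTGAA or TTCGAA), the CCAAT box and the E2F site (TTTCGCGC or TTTGGCGC). The E2F sites of Mcm5 and the distal pair in Mcm6 overlap each other and form 1 run of capitals.
Mcm5, chr8:75109309-75109508, plus strand: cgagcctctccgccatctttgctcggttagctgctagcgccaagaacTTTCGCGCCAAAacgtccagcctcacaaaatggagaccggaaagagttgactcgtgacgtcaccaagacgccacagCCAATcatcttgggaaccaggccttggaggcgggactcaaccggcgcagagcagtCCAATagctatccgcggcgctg
Mcm6, chr1:128359706-128359905, minus strand: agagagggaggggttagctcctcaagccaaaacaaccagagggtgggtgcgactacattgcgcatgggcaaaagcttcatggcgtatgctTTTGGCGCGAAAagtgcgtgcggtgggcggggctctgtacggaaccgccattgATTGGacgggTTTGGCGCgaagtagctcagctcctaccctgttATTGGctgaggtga
Ccnb2, chr9:70421555-70421754, minus strand: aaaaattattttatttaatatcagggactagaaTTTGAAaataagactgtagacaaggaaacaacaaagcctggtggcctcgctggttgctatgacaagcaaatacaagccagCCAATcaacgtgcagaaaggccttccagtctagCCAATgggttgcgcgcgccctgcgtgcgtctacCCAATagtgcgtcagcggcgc
Top2a, chr11:99024190-99024389, minus strand: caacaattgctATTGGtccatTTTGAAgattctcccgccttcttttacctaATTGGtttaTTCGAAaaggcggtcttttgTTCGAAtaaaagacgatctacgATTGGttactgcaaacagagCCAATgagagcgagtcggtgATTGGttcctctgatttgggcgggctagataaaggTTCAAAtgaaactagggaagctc
In Ccnb2 the CCAAT boxes begin 87, 54 and 21 bases before the start, all on the strand of the gene. The CHR element printed for Ccnb2 begins 167 bases before the start. Windows of 250 bases before to 50 after the start were found for 30 members (32 windows). They reach beyond the printed stretches and hold matches not shown there. In all, the window of Ccnb2 holds 2 CHR elements, that of Mcm5 3 CCAAT boxes and that of Top2a 6 CCAAT boxes. A CHR element lay in 12 of the 16 windows of G2 and M members (75%), in 2 of the 16 of G1 and S members (12.5%) and in 19.2% of 32851 windows of all genes. Both a CHR element and a CCAAT box lay in 75% of G2 and M member windows, 12.5% of G1 and S member windows and 7.52% of all windows. The E2F site showed the other order, in 6 of 16 G1 and S member windows (37.5%), 1 of 16 G2 and M member windows (6.25%) and 0.813% of all windows. CCAAT boxes lay in 87.5% of G2 and M member windows, 68.8% of G1 and S member windows and 37.4% of all windows. These are matches of letters and were not tested as binding sites. No window was matched for Ccna2, Ccnd1, Ccnd2, Ccne2, Mcm4, Gins2, Aurkb and Tpx2.

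Library totals were 55703865 to 58904269 counts in males and 40398665 to 59304196 in females. A two-sided exact permutation test of the totals of 6 KO against 6 WT libraries gave p = 0.762 (0.00216 at the least by design). Nsd2, named Whsc1 in the tables, had 0.905 to 2.67 CPM (counts scaled to library size) in the 6 KO libraries and 348 to 410 CPM in the 6 WT libraries, so every library matched its genotype label. Markers of neurons summed to 6702 to 7428 CPM in KO and 7115 to 7516 CPM in WT, and those of radial glia to 1543 to 1712 CPM in KO and 1492 to 1756 CPM in WT, so the defining markers of brain were present. Each CPM value is scaled with TMM library sizes and is not divided by gene length, so it is read across libraries and not between genes.

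No member passed the test between KO and WT. With edgeR's quasi-likelihood test over both sexes, with sex as a covariate, 0 of the 38 members had a Benjamini-Hochberg adjusted p under 0.05, against 375 of 19768 genes tested (1.9%). At an unadjusted p under 0.05 there were also 0 members, against 13.7% of genes, and DESeq2 called 0 members, against 4.08% of genes. That unadjusted count rested on the libraries used. Without WT female 2 it was 7 of 38, all higher in KO, against 15% of genes higher or lower. The 7 were Bub1, Cenpe, Cenpf, Mcm4, Mki67, Nusap1 and Tpx2, named after their values were seen. With all 12 libraries 5.8% of genes were higher at that threshold. Without any other single library the count of members was between 0 and 2. All 38 members passed the filter on low counts. Their adjusted p-values from edgeR ran between 0.418 and 0.972.

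The log2 fold changes were small and on one side. All 38 were above 0 in KO over WT, between 0.02 and 0.23, with a median of 0.123, beside 0.002 for all genes tested. The 38 values come from the same 12 libraries and are not independent of each other. Their standard errors were 0.067 to 0.169, so the 95% intervals reached down to -0.31 and up to 0.53 on the log2 scale (0.807-fold to 1.44-fold). For each of the 38 members the interval lay inside a 1.5-fold difference in either direction, and it also held 0. The medians by role were 0.06 for the G1 cyclins and E2f1, 0.09 for origin licensing and the fork, 0.11 for nucleotide supply and Uhrf1, 0.14 for the S, G2 and M cyclins and kinases, 0.19 for the spindle checkpoint and anaphase genes, and 0.12 for the chromosome, centromere and spindle genes.

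**Figure D1:**
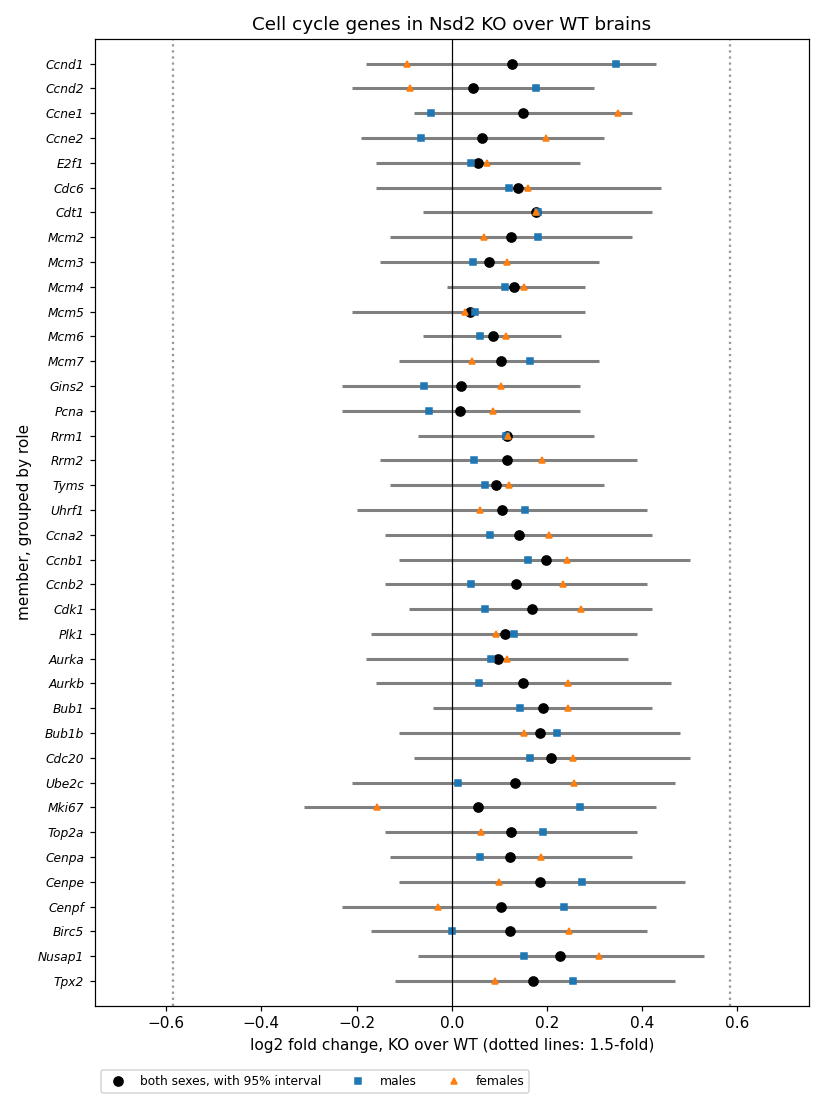
Log2 fold change of each member in KO over WT brains, grouped by role. Black points with bars are the fit over both sexes with its 95% interval, blue squares are males and orange triangles are females, and dotted lines mark 1.5-fold. All 38 black points lie right of 0, between 0.02 and 0.23, and every bar crosses 0.

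The size of the members' shift depended on the libraries used, and its median stayed above 0 without any single library. Without WT female 1 the median was 0.06, without WT male 2 it was 0.07, and each of these fits left 34 of 38 members above 0. Without both, a fit chosen after seeing the data, the median was -0.015 and 16 of 38 members were above 0, with 0 members called, against 0.794% of genes. Both are WT and the lowest libraries for the members, so leaving them out lowers KO over WT by construction. Without KO female 3 the median was 0.07, and without WT female 2 it was 0.17 with all 38 members above 0. No member was called in any of these fits.

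**Figure D2:**
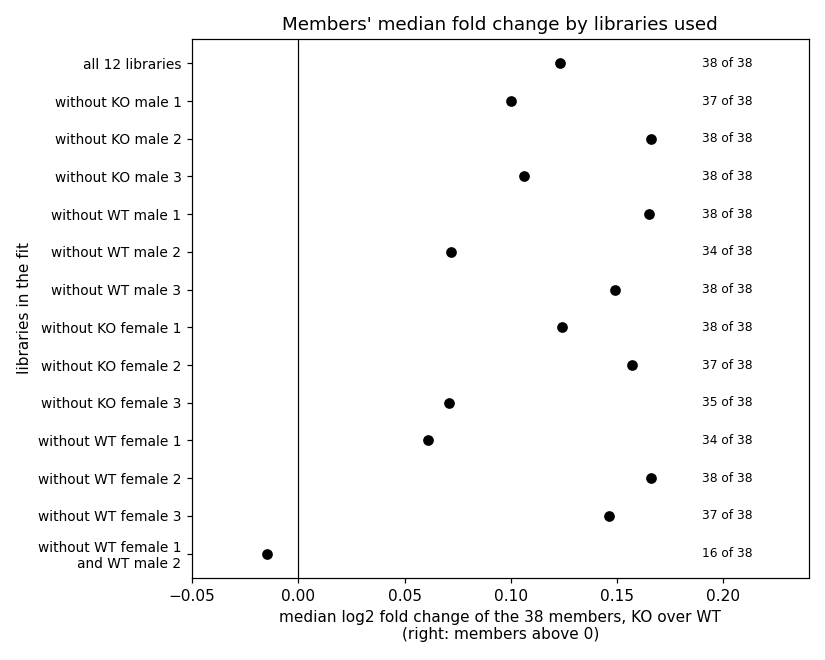
Median log2 fold change of the 38 members in KO over WT (horizontal axis) in fits with all 12 libraries, with each library left out and with both WT female 1 and WT male 2 left out; numbers at the right count members above 0. The median is 0.12 with all libraries and -0.015 without both, which are the WT libraries lowest for the members.

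The spread between libraries was wider than the difference between genotypes. Over the 12 libraries the coefficient of variation of a member was 9.9% (Mcm6) to 21.7% (Mki67), with a median of 16.4%. WT female 1 had the lowest CPM of all libraries for 26 of the 38 members and WT male 2 for 7. KO female 3 had the highest for 12, KO male 3 for 10 and KO male 1 for 7. As a median over the members of log2 CPM minus the mean of 12 libraries, KO males had 0.18, -0.07 and 0.22, against 0.15, -0.27 and 0.10 in WT males. KO females had -0.01, -0.15 and 0.22, against -0.43, 0.07 and -0.01 in WT females. In both sexes the KO and WT libraries overlapped, and the lowest library was a WT one. The summed CPM of the members was 2593 ± 346 in KO males and 2332 ± 347 in WT males, and 2365 ± 317 in KO females and 2315 ± 277 in WT females (SD, n = 3 each). Ccnd2, with a mean of 709 CPM over the 12 libraries, weighs most in these sums.

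The shift of WT female 1 was uneven over the roles. Its median deviation was -0.68 for the S, G2 and M cyclins and kinases, -0.50 for the checkpoint genes, -0.43 for licensing and the fork, -0.42 for the chromosome and spindle genes, -0.38 for nucleotide supply and -0.02 for the G1 cyclins and E2f1. That last median hid a split. In WT female 1 Ccne2 (7.10 CPM) was the lowest of all libraries and E2f1 (11.4 CPM) the lowest of the female ones. Ccne1 (5.76 CPM) was below all libraries but WT female 2. Ccnd1 (77.65 CPM) and Ccnd2 (792 CPM) were instead the highest of the WT females. In WT male 2 the 6 roles lay between -0.40 and -0.22. Members of the licensing group varied least over the 12 libraries, with a median coefficient of variation of 13.8%, against 18.6% both for the cyclins and kinases and for the checkpoint genes.

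**Figure D3:**
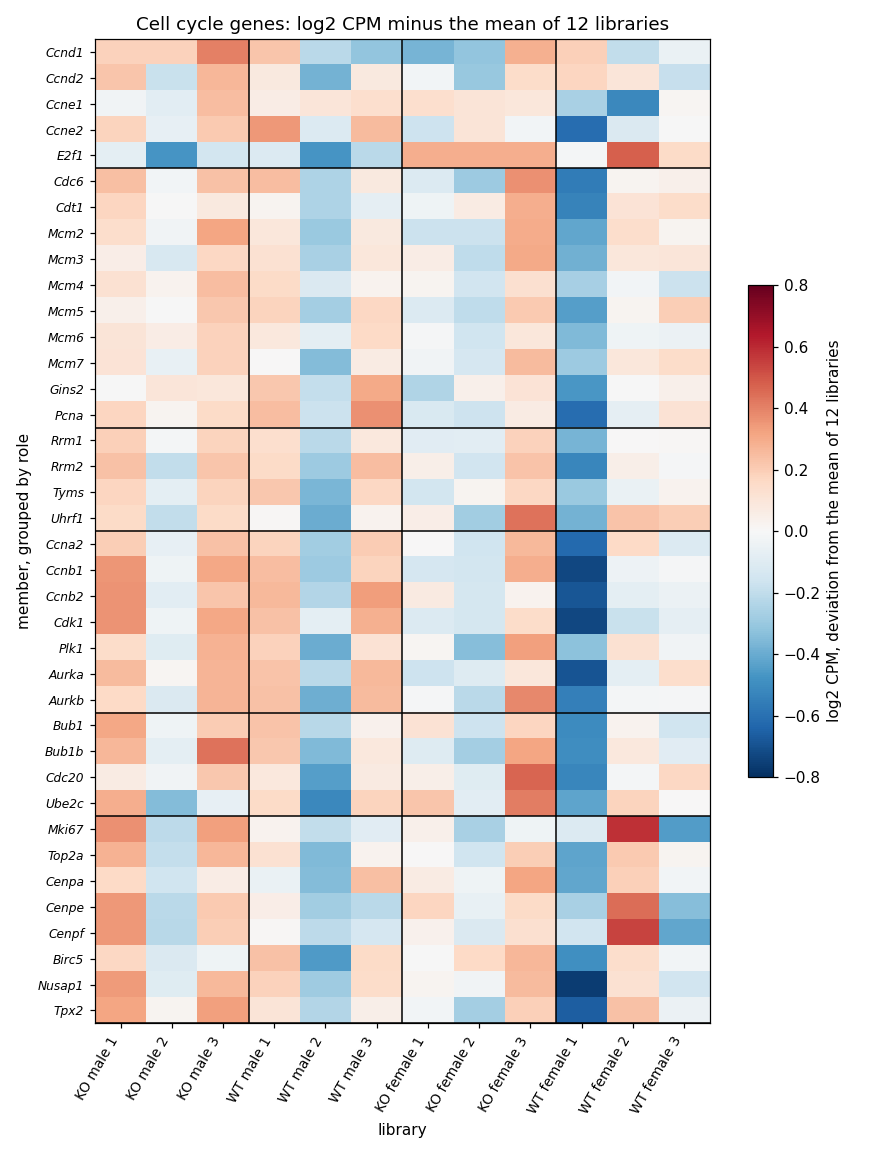
Deviation of each member's log2 CPM from its mean over 12 libraries (colour, blue below and red above), with members in rows by role and libraries in columns. WT female 1 is blue in nearly all rows below the G1 cyclins, and WT male 2 is lighter blue in most rows.

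Some marker lists were also at their extremes in WT female 1 and WT male 2, and others were not. The 7 intermediate progenitor markers summed to 309.5 to 441 CPM in KO and 232 to 394 CPM in WT, with the lowest sums in WT female 1 (232 CPM) and WT male 2 (235 CPM). The 8 forebrain genes summed to 711 to 1031 CPM in KO and 578 to 1071 CPM in WT, with WT female 1 and WT male 2 again lowest. The 7 meninges and fibroblast markers summed to 287 to 658 CPM in KO and 225 to 1269 CPM in WT, and there WT male 2 and WT female 1 were the highest. The 19 Hox genes of hindbrain and spinal cord summed to 0.853 to 289 CPM in KO and 1.11 to 272 CPM in WT, and they were low in WT female 1 (2.49 CPM) and high in WT male 2 (227 CPM). No gene of these 4 lists passed edgeR's test over both sexes in KO over WT (median log2 fold changes 0.17, 0.16, -0.345 and -0.73 in the same order), and there were 0 in each at an unadjusted p under 0.05 or with DESeq2. The other markers of these lists were above 0 in every library, whereas Hox genes reached 0, Hoxa5 among them in KO male 3. The sexes differed for the Hox genes tested. Their median log2 fold change was -2.558 in males (17 of 17 below 0) and 0.986 in females (18 of 18 above 0). The 12 radial glia markers, which mark the main cycling cells, summed to 1597 CPM in WT female 1 and 1595 CPM in WT male 2, inside the range of the other libraries, and 8 were above 0 in KO over WT (median 0.07). Some other cell types lay on the side opposite to the members: 5 of 5 oligodendrocyte precursor markers (median log2 fold change -0.297), 10 of 12 neuronal markers (-0.123) and 8 of 9 microglia and macrophage markers (-0.191) were below 0. The 11 erythroid genes (0.043) and 8 endothelium and pericyte markers (-0.025) were split over both sexes. Within the sexes the erythroid median was -0.347 in males (9 of 11 below 0) and 0.464 in females (9 of 11 above 0). None of these 6 lists had a called gene in edgeR. At an unadjusted p under 0.05, where 5.8% of all genes were higher and 7.9% lower, 1 radial glia, 3 oligodendrocyte precursor and 1 microglia marker were lower, 1 neuronal marker was higher and 1 lower, and 1 endothelium marker was higher. DESeq2 called 1 gene of these, the radial glia marker Tnc, as lower in KO (named after its values were seen). The part of tissue makeup in the members' values was not tested.

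**Figure D4:**
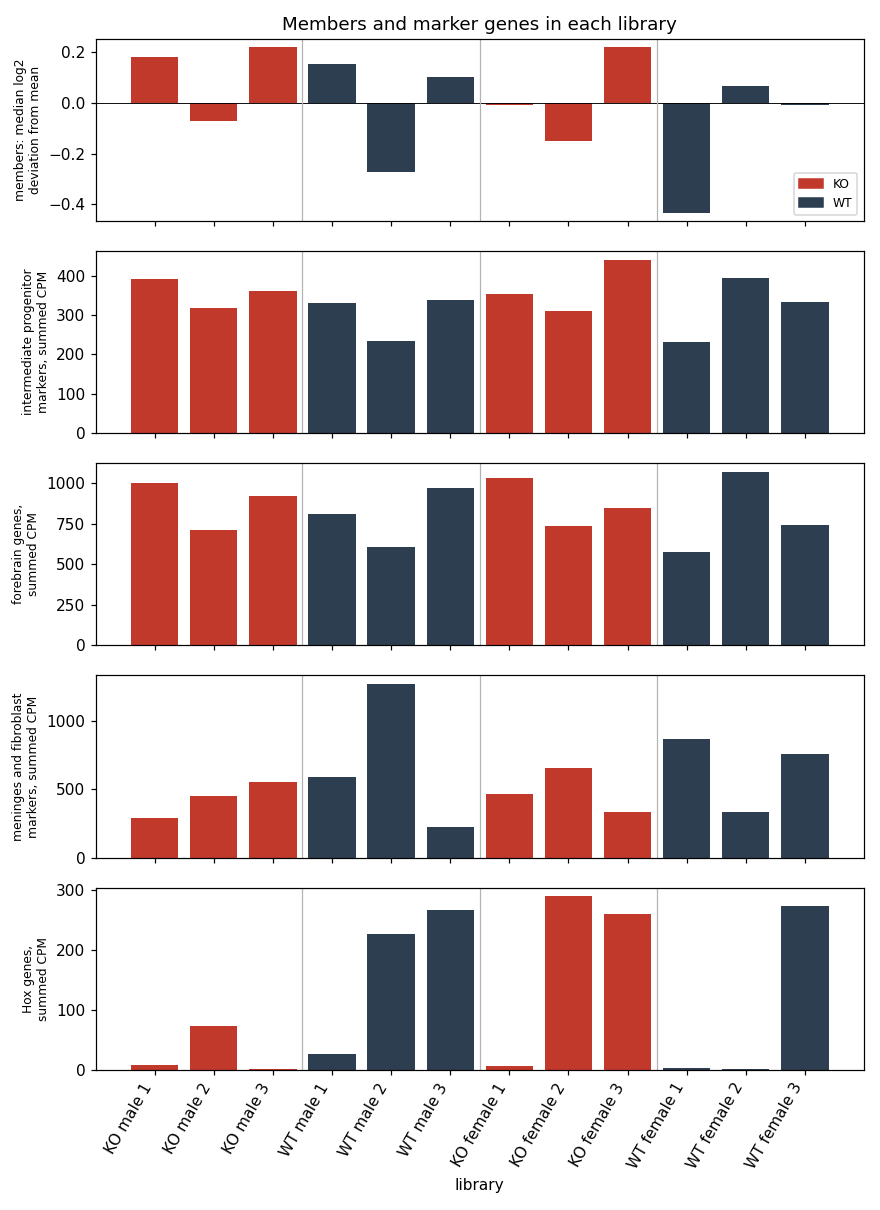
Top, median over the 38 members of log2 CPM minus the mean of 12 libraries; below, summed CPM of intermediate progenitor markers, forebrain genes, meninges and fibroblast markers and Hox genes, for each library (red KO, dark WT). WT female 1 (-0.43) and WT male 2 (-0.27) are lowest in the top row, lowest for the progenitor and forebrain sums and highest for the meningeal sum.

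Of the G1 genes, the D-type cyclins were not low in WT female 1. Ccnd1 (chr7:144929931-144939925 on GRCm38, as for the other members), which couples growth signals to G1, had 77.2, 77.1 and 89.7 CPM in KO males, against 79.3, 58.5 and 54.7 CPM in WT males. Its male log2 fold change was 0.345 (SE 0.144), the only member with an unadjusted p under 0.05 in males (edgeR, adjusted p = 0.408), and the groups overlapped through WT male 1. In KO females it had 52.6, 54.6 and 82.85 CPM, against 77.65, 59.4 and 65.65 CPM in WT females. WT female 1, lowest for most members, was the highest WT female library for Ccnd1. The reads of Ccnd1 are uncertain in part, since its exons share 1100 bases with LTO1 on the opposite strand.

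Ccnd2 (chr6:127125162-127152193), a D-type cyclin of neural precursors, had 820.5, 622 and 844 CPM in KO males, against 741, 541 and 743 CPM in WT males. It had 692.5, 568 and 778 CPM in KO females, against 792, 753 and 619 CPM in WT females. Over both sexes its log2 fold change was 0.045 (SE 0.117, 95% interval -0.21 to 0.30, edgeR adjusted p = 0.915), with WT female 1 the highest of the female libraries and WT male 2 the lowest of the males.

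Ccne1 (chr7:38097984-38107534), the cyclin that fires S phase entry with CDK2, was the only member whose libraries did not overlap between genotypes in a sex. It had 7.57, 7.41 and 7.34 CPM in KO females, against 5.76, 4.80 and 6.95 CPM in WT females, so 1 of 38 members (2.63%) lay wholly above, beside 7.79% of all genes tested in females. In males it had 6.76, 6.48 and 8.17 CPM in KO, against 7.18, 7.38 and 7.55 CPM in WT, and these overlapped. The log2 fold changes were -0.04 (SE 0.122) in males and 0.35 (SE 0.158) in females, and their difference, males minus females, was -0.39 (SE 0.195, interaction in edgeR, unadjusted p = 0.0669, adjusted p = 0.91). Over both sexes the value was 0.15 (SE 0.108, 95% interval -0.08 to 0.38, edgeR adjusted p = 0.603). Its paralog Ccne2 had 9.65 to 12.5 CPM in KO and 7.10 to 13.8 CPM in WT, with 609 exon bases shared with Ints8 on the opposite strand.

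E2f1 (chr2:154559407-154569892), a transcription factor that switches on S phase genes, had 11, 8.36 and 10.48 CPM in KO males and 10.75, 8.33 and 9.99 CPM in WT males. KO females had 14.2, 14.2 and 14.2 CPM and WT females 11.4, 16.2 and 12.9 CPM. All 6 male libraries lay below all 6 female libraries, while KO and WT overlapped in each sex. In KO over WT its log2 fold change was 0.06 (SE 0.0984, 95% interval -0.16 to 0.27, edgeR adjusted p = 0.867).

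**Figure D5:**
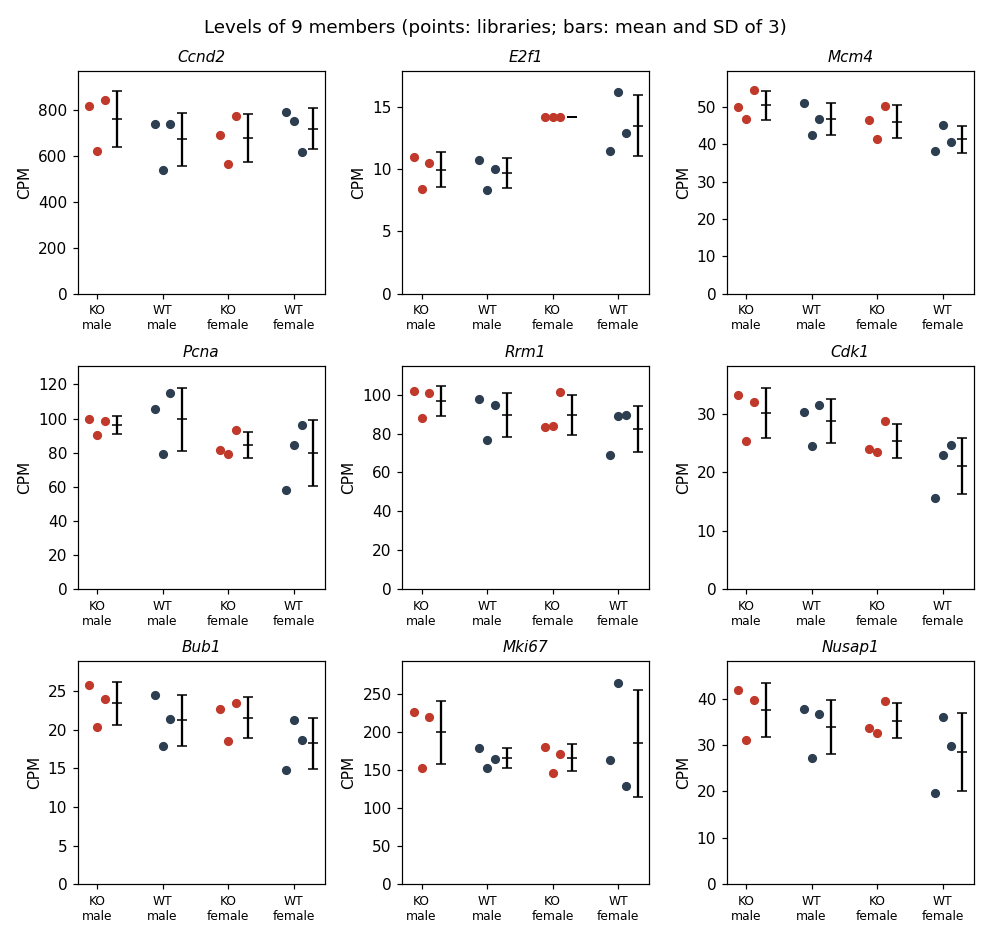
CPM of 9 members in each library (points), with mean and SD of the 3 libraries of each group (bars), for KO males, WT males, KO females and WT females. KO and WT overlap in both sexes for all 9, and E2f1 is 8.33 to 11 CPM in males and 11.4 to 16.2 CPM in females.

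Licensing and fork genes had the lowest spread of the 6 roles. Mcm4 (chr16:15623897-15637400), a subunit of the MCM2-7 helicase, came closest to the threshold of all members in the fit over both sexes. It had 50.1, 46.85 and 54.5 CPM in KO males, against 51.05, 42.4 and 46.8 CPM in WT males. KO females had 46.6, 41.4 and 50.2 CPM, against 38.2, 45.3 and 40.8 CPM in WT females. Its log2 fold change over both sexes was 0.13 (SE 0.0673, 95% interval -0.01 to 0.28, edgeR adjusted p = 0.418), with overlap in each sex. Mcm7 (chr5:138164583-138172422), another helicase subunit, had a lowest, median and highest value of 86.6, 97.7 and 113 CPM in KO, against 74.8, 97.3 and 105 CPM in WT. Its exons share 321 bases with Ap4m1 and 64 with Cops6, both on the opposite strand. The other helicase subunits Mcm2, Mcm3, Mcm5 and Mcm6 had log2 fold changes of 0.12, 0.08, 0.04 and 0.09, and the loaders Cdc6 and Cdt1 had 0.14 and 0.18. Gins2, part of the active helicase, had 5.70 to 7.25 CPM in KO and 4.87 to 8.31 CPM in WT. Of its exons 2758 bases overlap Gse1 on the opposite strand, which holds 98944 counts over the 12 libraries against 4345 for Gins2.

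Pcna (chr2:132249162-132253314), the clamp that tethers DNA polymerases, showed no side. It had 99.97, 90.05 and 98.7 CPM in KO males, against 105, 78.95 and 115 CPM in WT males, and 81.5, 79.1 and 93.1 CPM in KO females, against 58.3, 84.65 and 96.2 CPM in WT females. WT libraries were the highest and the lowest in both sexes. The log2 fold change was 0.02 (SE 0.117, 95% interval -0.23 to 0.27, edgeR adjusted p = 0.972) and turned to -0.14 without WT female 1 and WT male 2, where Pcna was the only member with an unadjusted p under 0.05 (9.1% of genes, edgeR adjusted p = 0.541). Those WT libraries were left out after the data were seen, as the lowest for the members, which lowers KO over WT by construction. A processed copy, Pcna-ps2, is counted apart and held 5186 counts, against 57813 for Pcna, so reads may be split between them.

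Of the genes of nucleotide supply none passed the test. Rrm1 (chr7:102441695-102469771), the large subunit of ribonucleotide reductase, had 102, 87.95 and 101 CPM in KO males, against 97.6, 76.5 and 94.5 CPM in WT males. In KO females it had 83.5, 83.9 and 101 CPM, against 68.8, 89.1 and 89.6 CPM in WT females, and the groups overlapped in both sexes (log2 fold change over both 0.12, SE 0.0847, 95% interval -0.07 to 0.30, edgeR adjusted p = 0.608). The small subunit Rrm2, the thymidylate synthase Tyms and Uhrf1, which brings the maintenance methyltransferase to newly copied DNA, had 0.12, 0.09 and 0.11.

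Among the mitotic kinases, Cdk1 (chr10:69335146-69352938), the kinase that starts mitosis, had 33.25, 25.3 and 32.1 CPM in KO males, against 30.5, 24.6 and 31.6 CPM in WT males. It had 24.04, 23.5 and 28.8 CPM in KO females, against 15.7, 22.9 and 24.7 CPM in WT females. KO and WT overlapped in both sexes, and WT female 1 stood lowest of all 12. Its log2 fold change was 0.17 (SE 0.117, 95% interval -0.09 to 0.42, edgeR adjusted p = 0.589), and 0.08 without WT female 1. Ccna2 (chr3:36564865-36572150), the cyclin of S and G2, had a lowest, median and highest value of 49.3, 59.2 and 65.9 CPM in KO, against 35.7, 56.2 and 63.3 CPM in WT. Its exons share 510 bases with Exosc9 on the opposite strand. The B cyclins Ccnb1 and Ccnb2 had log2 fold changes of 0.20 and 0.135, and the kinases Plk1, Aurka and Aurkb, which act on centrosomes, spindle and centromere, had 0.11, 0.10 and 0.15.

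The spindle checkpoint and anaphase genes had the highest median of the 6 roles over both sexes (0.189), and none passed the test. In males the chromosome, centromere and spindle genes had the highest median, 0.214, against 0.154 for the checkpoint genes. Bub1 (chr2:127801122-127831865), a checkpoint kinase at the kinetochore, had 25.9, 20.4 and 24.04 CPM in KO males, against 24.5, 17.9 and 21.4 CPM in WT males. KO females had 22.7, 18.6 and 23.5 CPM, against 14.8, 21.3 and 18.7 CPM in WT females, with overlap in both sexes. Its log2 fold change was 0.19 (SE 0.106, 95% interval -0.04 to 0.42, edgeR adjusted p = 0.461). Bub1b (chr2:118598211-118641591), which encodes BUBR1 of the mitotic checkpoint complex, had 31.2, 40.4 and 50.8 CPM as lowest, median and highest in KO, against 26.6, 37.6 and 43.8 CPM in WT. Cdc20, the activator of the anaphase-promoting complex, and Ube2c, its ubiquitin-conjugating enzyme, had log2 fold changes of 0.21 (SE 0.133) and 0.13 (SE 0.156).

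Nusap1 (chr2:119618298-119651244), a microtubule-binding protein of the spindle, had the largest log2 fold change of the 38 members over both sexes, 0.23 (SE 0.14, 95% interval -0.07 to 0.53, edgeR adjusted p = 0.52). Its libraries held 41.9, 30.95 and 39.7 CPM in KO males, against 37.7, 27.2 and 36.7 CPM in WT males. They held 33.7, 32.5 and 39.5 CPM in KO females, against 19.5, 36.1 and 29.8 CPM in WT females. WT female 1 was the lowest of the 12, and without it and WT male 2 the log2 fold change was 0.06. Those WT libraries were left out as the lowest for the members, which lowers KO over WT by construction.

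Mki67 (chr7:135689784-135716361), which coats mitotic chromosomes and is the usual marker of proliferation, had the widest spread. It had 227, 152 and 220.5 CPM in KO males, against 179.6, 153 and 165 CPM in WT males, and 181, 147 and 172 CPM in KO females, against 163, 264 and 129 CPM in WT females. The highest library of all was WT female 2 and the lowest WT female 3. Its log2 fold change was 0.06 (SE 0.169, 95% interval -0.31 to 0.43, edgeR adjusted p = 0.928). The kinetochore genes Cenpe and Cenpf shared that order of WT females, with 31.0, 50.8 and 29.35 CPM and 63.7, 103 and 52.9 CPM. Cenpe had 42.0, 35.8 and 41.3 CPM and Cenpf 72.6, 65.25 and 77.2 CPM in KO females, inside the range of the WT females.

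Top2a (chr11:98992943-99024189), the topoisomerase that untangles sister chromatids, had a lowest, median and highest value of 157, 193 and 218 CPM in KO, against 134, 183 and 207 CPM in WT. Its log2 fold change was 0.125 (SE 0.124, 95% interval -0.14 to 0.39, edgeR adjusted p = 0.727). The centromeric histone Cenpa, the chromosomal passenger Birc5 and the spindle assembly factor Tpx2 had log2 fold changes of 0.12, 0.12 and 0.17, with overlapping KO and WT libraries.

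Within each sex no member passed the test either. In males edgeR called 0 of 38 members, against 87 of 18672 genes (0.466%), 1 member had an unadjusted p under 0.05 (11.9% of genes) and DESeq2 called 0 (2.59% of genes). In females edgeR called 0, against 4 of 18710 genes (0.0214%), 0 members had an unadjusted p under 0.05 (7.48% of genes) and DESeq2 called 0 (0.962% of genes). Of the 38 log2 fold changes 34 were above 0 in males (median 0.11, all genes -0.005) and 34 in females (median 0.12, all genes 0.007). The male median was -0.01 without WT male 2, and -0.09 once Hox expression entered the fit as a covariate. In males all 17 Hox genes tested were below 0 in KO over WT (median -2.558), so that covariate partly follows genotype there. The female median was 0.003 without WT female 1. Over the 8 female alternatives that kept all libraries, the Hox covariate among them, it was 0.1 to 0.147. No member lay wholly above or below WT in males, where 8.47% and 8.83% of genes did, or over both sexes, where 0.521% and 1.3% did. In females 0 members lay wholly below, against 6.19% of genes. The interaction of genotype and sex called 0 members with edgeR, against 0 of 19768 genes (0%), with 0 members and 880 genes (4.45%) at an unadjusted p under 0.05, and DESeq2 called 0 members and 5 genes (0.0253%).

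Between the sexes 2 members passed edgeR's test with genotype as a covariate, 5.26% of the 38, against 4692 of 19768 genes (23.7%). E2f1 fell in males over females by 0.495 on the log2 scale (SE 0.0986, edgeR adjusted p = 0.00316), with 8.33 to 11 CPM in males and 11.4 to 16.2 CPM in females. It was the only member with no overlap, 1 of 38 (2.63%), where 4.76% of genes lay wholly below in males. No member lay wholly above in males, where 5.97% of genes did. The call held with each library left out, at adjusted p-values of 0.0022 to 0.0108 in edgeR. Cdk1 rose in males, by 0.35 (SE 0.118, edgeR adjusted p = 0.0452), with 24.6 to 33.3 CPM in males and 15.7 to 28.8 CPM in females, which overlapped. That call was lost without any one of KO male 1, KO male 3, WT male 1, WT male 3, KO female 1, KO female 2, WT female 1 or WT female 2, at adjusted p-values of 0.0675 to 0.0915 in edgeR. The 12 libraries were made with either of 2 depletion kits and either of 2 sequencers, which the labels do not give by library. Sex and batch therefore cannot be told apart. Whether kits and sequencers were balanced between KO and WT libraries is not given either, so this limit also holds for KO over WT.

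Other genes of the pathway were mostly above 0 too, and none passed the test. Of 104 listed genes, 103 were tested over both sexes and edgeR and DESeq2 each called 0 in either direction, with 13 higher and 2 lower at an unadjusted p under 0.05 in edgeR (against 5.8% and 7.9% of all genes, 13.7% in all) and 95 above 0 (median 0.13). The 36 genes of replication and repair synthesis had a median of 0.10, and their most counted ones, the ligase Lig1 and the polymerase subunit Pold3, had log2 fold changes of 0.14 (SE 0.0723) and 0.045 (SE 0.05). The 37 genes of mitosis and cytokinesis had a median of 0.19, and the condensin genes Ncapd2 and Smc4 had -0.06 (SE 0.226) and 0.20 (SE 0.104). The 17 transcription factors of the cell cycle had a median of 0.11, with 0.12 (SE 0.0758) for the retinoblastoma gene Rb1 and 0.11 (SE 0.0901) for Mycn. The 13 tested CDK inhibitors and other G1 genes had a median of 0.14, with 0.16 (SE 0.0816) for the G1 kinase Cdk4 and -0.07 (SE 0.146) for the inhibitor Cdkn1c. The smallest adjusted p of these lists was 0.212 in edgeR, for Anln, an actin-binding protein of the cleavage furrow, with a log2 fold change of 0.28 (SE 0.0968, named after its values were seen).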

How the data were processed

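RNA from embryonic brains at E15.5 was sequenced as 6 KO and 6 WT libraries after ribosomal RNA depletion with a stranded kit. The deposited values are read counts per gene with no normalization, in 1 table for males and 1 for females. To make these counts the authors trimmed reads (cutadapt 2.6), aligned them to mm10 (HISAT2 2.1.0) and quantified Ensembl genes with StringTie 2.0.6, whose script derives whole counts from coverage. The strand setting of the counting, filters and pooling of brains are not given in the sources used here, so p-values measure the spread between these libraries.

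Both tables were joined on gene ID. Genes with 10 or more counts (relative to library size) in enough libraries for the smallest group, and a total of 15 or more, passed filterByExpr and were tested with edgeR 4.0.16 in R 4.3.3 (TMM, robust quasi-likelihood F test, Benjamini-Hochberg over all genes tested, threshold 0.05). Fits were KO over WT with sex as a covariate, KO over WT within each sex, the interaction of both, and male over female with genotype as a covariate. Log2 CPM used a prior count of 2. Each SE from edgeR was derived so that the squared ratio of log2 fold change to SE equals the quasi-likelihood F. Intervals are 95% t intervals built on that SE in each fit. Duplicates from PCR stay in these counts. No test was run over the members as a set.

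Alternatives were RLE normalization, DESeq2 1.42.0, no filter, more than 1 CPM in 3 libraries, totals without small RNAs, mitochondrial and histone genes, the replicate number as a block, the Hox level as a covariate, libraries with under 1 CPM of Hoxa5, the spread over all 12 libraries and each library left out. The edgeR step was tested on simulated counts.

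The members and lists were chosen with earlier results of these data known. Given with full values are members past the threshold, in each role the one with the smallest p over both sexes and the one with the highest mean CPM, Mki67 and Pcna, and of each pathway list up to 4 called genes or else the 2 with the highest mean CPM. Other genes were named after their values were seen. Positions are from GENCODE M21 on GRCm38, and promoters from RefSeq on GRCm38.p6. The exons of 11 members overlap another annotated gene. Figures were drawn with matplotlib 3.10.9 in Python 3.11.15.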

Additional observations from a re-analysis of the deposited data

Results flagged for a closer look

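Each member and their summed CPM were checked in the 6 KO and in the 6 WT libraries, 78 sets in all, for a library that lay far from the nearest other one. By chance about 1 in 20 such sets is flagged, and 3 were. Mki67 stood at 264 CPM in WT female 2, with the next WT library at 180 CPM. Cenpf, a kinetochore protein, stood at 103 CPM in the same library, with the next at 71.2 CPM. Gins2 stood at 5.70 CPM in KO female 1, the next KO library at 6.73 CPM.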

How the results depend on the processing

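The count of 0 members called in KO over WT, over both sexes, in males and in females, and for the interaction, was the same under every alternative run. With the replicate number as a block the count over both sexes stayed at 0 and the median log2 fold change was 0.129. There 4 members (Ccnb1, Cdc20, Cdt1 and Nusap1) were higher at an unadjusted p under 0.05, against 13.2% of genes higher or lower. The numbers were not taken as pairs because of the correlations between same-numbered KO and WT libraries. These were 0.028, 0.185 and -0.044 in males and 0.051, -0.053 and 0.195 in females. The block gave 290 calls over all genes in males, against 87 without it, and 1 in females, against 4. The median over both sexes was 0.061 to 0.166 with each library left out. Without both WT female 1 and WT male 2, log2 fold changes turned below 0 for Mki67 (-0.014), Pcna (-0.142), Mcm7 (-0.015), Ccna2 (-0.019), Top2a (-0.017) and E2f1 (-0.043). That fit was not planned. Those WT libraries were the lowest for the members, so leaving them out lowers KO over WT by construction. With single libraries left out, Mki67 ranged between -0.01 and 0.234, Pcna between -0.07 and 0.084 and Ccnd2 between -0.025 and 0.111, all with no call. Over the same fits E2f1 ranged between 0.008 and 0.122, Top2a between 0.062 and 0.197, Mcm7 between 0.049 and 0.151, Rrm1 between 0.065 and 0.152, Ccna2 between 0.053 and 0.217, Cdk1 between 0.08 and 0.237, Ccne1 between 0.076 and 0.209, Bub1 between 0.13 and 0.256, Bub1b between 0.111 and 0.248, Nusap1 between 0.127 and 0.31 and Mcm4 between 0.103 and 0.171, with adjusted p-values of 0.29 or more in edgeR. The lowest E2f1, Top2a, Rrm1 and Cdk1 values were those without WT female 1. Pcna was below 0 without KO female 3 (-0.02), WT female 1 (-0.07) or WT male 2 (-0.034), Mki67 without KO male 1 (-0.01) or WT female 3 (-0.009), and Ccnd2 without WT male 2 (-0.025). Members called in male over female numbered 1 to 2 with a library left out, and Cdk1, with log2 values of 0.26 to 0.425, was the call lost. Causes were not tested. Differences smaller than the intervals given could not be resolved with 3 libraries in each group.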
